A study of Mus musculus with 2 samples.

Results

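The genes of microtubule-associated proteins and stathmins were examined in mouse hindbrain at embryonic day 12.5. They are Dcx, Dclk1, Map1a, Map1b, Map2, Mapt, Stmn1, Stmn2, Stmn3 and Stmn4. These 10 genes were chosen by name, and all 10 were found by symbol among the 55536 genes of the GENCODE M21 tables, where they have 86 of 141862 annotated transcripts. RNA with a polyA tail was sequenced from hindbrain of B6NCrl embryos of mixed sex. The study holds 1 group with 2 biological replicates and no second condition: pool 1 combined 120 embryos and pool 2 combined 88. Each pool averages many embryos, so the spread between the pools is not the spread between animals. All statements below are therefore descriptions of these 2 pools, and no p-value could be given.

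Microtubules are polymers of tubulin dimers that carry transport and give axons and dendrites their shape. Structural microtubule-associated proteins such as MAP1B, MAP2 and tau bind along the polymer and stabilise or space it, doublecortin and its relatives bind between protofilaments and are needed by migrating neurons, and stathmins bind free tubulin dimers and promote disassembly. Several of these genes make more than 1 protein through alternative exons, and the choice of exon changes during brain development.

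Exon sequences carry the differences between isoforms and paralogs described below, all from the GENCODE M21 transcripts of GRCm38 (mm10). The first is the 93-base exon that codes for 1 of the microtubule-binding repeats of Map2 (chr1:66431527-66431619, plus strand) and that only some of its transcripts include. It is shown in lower case, since no part is marked.
Map2 repeat exon: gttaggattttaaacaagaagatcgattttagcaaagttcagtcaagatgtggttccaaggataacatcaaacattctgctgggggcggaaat

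The second set is the 96-base coding exon near the amino terminus that Stmn2 (chr3:8541841-8541936, plus strand), Stmn3 (chr2:181309147-181309242, minus strand) and Stmn4 (chr14:66355586-66355681, plus strand) have and Stmn1 lacks. It encodes part of the membrane-anchoring extension that sets these neuronal stathmins apart from cytosolic stathmin. Capitals mark the in-frame cysteine codons, of which each exon has 2.
Stmn2 exon: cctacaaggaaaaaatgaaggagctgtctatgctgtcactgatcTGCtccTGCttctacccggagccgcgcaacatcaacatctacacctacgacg
Stmn3 exon: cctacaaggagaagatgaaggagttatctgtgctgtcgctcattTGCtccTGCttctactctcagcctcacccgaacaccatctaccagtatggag
Stmn4 exon: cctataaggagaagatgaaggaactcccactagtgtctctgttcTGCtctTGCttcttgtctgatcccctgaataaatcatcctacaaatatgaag

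Over these 96 bases, Stmn2 and Stmn3 were 75.0% identical, Stmn3 and Stmn4 66.7% and Stmn2 and Stmn4 65.6%. The 192-base exon that all 4 stathmins share was 69.8% (Stmn3 and Stmn4) to 79.2% (Stmn1 and Stmn4) identical between members. The third sequence is the 81-base exon of Stmn4 (chr14:66356269-66356349, plus strand) that only part of its transcripts include, shown because its inclusion is measured below.
Stmn4 cassette exon: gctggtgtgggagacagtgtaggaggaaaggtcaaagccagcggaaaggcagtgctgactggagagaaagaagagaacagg

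Gene counts summed to 31469575 for pool 1 and 29261472 for pool 2, and ERCC spike-in RNAs took 3.31% and 4.25% of the library. The 10 members held 0.806% of gene counts in pool 1 and 0.855% in pool 2. The tissue label was checked against markers: all 6 hindbrain position genes reached 1 TPM (abundance scaled to transcript length and library size) in both pools. So did 2 of 6 forebrain genes, Lhx2 (24.2 and 23.8 TPM) and Emx2 (2.14 and 3.65). Lhx2 lay above the hindbrain gene Hoxb3 (11.8 and 14.8), so the lists were not fully separated. All 9 neuron markers and all 9 progenitor markers also reached 1 TPM in both pools. Both pools also held RNA of other cells, with 6 of 6 skeletal muscle, 5 of 5 mesenchyme and 5 of 5 erythroid markers at 1 TPM or more. The same held for 5 of 5 cranial ganglion and 5 of 5 oligodendrocyte lineage markers.

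All 10 members reached 1 TPM in both pools, as did 29.0% of all genes and 61.8% of protein-coding genes. At 100 TPM the count was 9 of 10, against 2.98% of all genes and 7.14% of protein-coding genes. Map1a was the exception. TPM is scaled by transcript length, so levels of different genes are set side by side on this scale. Such comparisons depend on the annotated transcripts, as described below for Map1b and Dclk1. Amplification from low input can also affect long transcripts. In bulk tissue, a low level in every cell and a high level in few cells cannot be told apart.

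Among the stathmins, Stmn1, the cytosolic member that is also made in dividing cells, reached 3549 TPM (pool 1) and 3662 TPM (pool 2; mean 3605 ± 80.6, SD, n = 2). It ranked 15 of 55536 genes. The gene lies on chromosome 4 at 134468320 to 134473843, plus strand. Stmn3, a neuronal member bound to membranes (chromosome 2, 181306459 to 181314500, minus strand), stood at 391 and 385 TPM (388 ± 3.88). Stmn2, known as SCG10 and abundant in growth cones (chromosome 3, 8509360 to 8561606, plus strand), stood at 362 and 365 TPM (364 ± 2.07). Stmn4, the remaining neuronal stathmin (chromosome 14, 66344296 to 66361680, plus strand), was lower than these at 121 and 132 TPM (126 ± 7.79). The Stmn1 level was thus far above that of the 3 neuronal stathmins in both pools. The 4 stathmins together made up 71.4% and 70.9% of the TPM of all 10 members (71.2% ± 0.358), and Stmn1 alone 57.2% ± 0.113. Stathmin transcripts are short, and they held 35.8% ± 1.06 of the members' counts.

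Among the structural proteins, Map1b, which acts in growing axons (chromosome 13, 99421446 to 99516540, minus strand), was the highest at 991 and 1019 TPM (1005 ± 19.7; rank 71). Its paralog Map1a, known for rising later in brain maturation (chromosome 2, 121289600 to 121310832, plus strand), was the lowest of all members at 8.03 and 11.2 TPM (9.63 ± 2.26; rank 10082). Pool 2 was the higher for both, and the pools of one gene stayed far from those of the other. Map2, the dendritic protein (chromosome 1, 66175273 to 66442583, plus strand), stood at 283 and 311 TPM (297 ± 19.6). Mapt, which codes for the axonal protein tau (chromosome 11, 104231390 to 104332090, plus strand), stood at 182 and 190 TPM (186 ± 5.81). Map2 therefore exceeded Mapt in both pools.

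Of the doublecortin family, Dcx, a marker of migrating young neurons (chromosome X, 143855842 to 143933311, minus strand), stood at 170 TPM in pool 1 and 204 in pool 2 (187 ± 23.8). Its paralog Dclk1, which in its long form joins doublecortin domains to a kinase (chromosome 3, 55242364 to 55539068, plus strand), stood at 132 and 126 TPM (129 ± 4.41). Dcx was the higher gene in both pools.

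In order of mean TPM the members were Stmn1, Map1b, Stmn3, Stmn2, Map2, Dcx, Mapt, Dclk1, Stmn4 and Map1a. Neighbours in this order were separated in both pools except for Dcx and Mapt and for Dclk1 and Stmn4, whose values overlapped. The largest steps were from Stmn4 down to Map1a (13.1-fold), from Stmn1 to Map1b (3.59-fold) and from Map1b to Stmn3 (2.59-fold). The steps on either side of Map1b depend on its short M21 transcripts, described below. On the older annotation M4 they were 8.22-fold and 1.13-fold, and with complete coding transcripts alone Stmn3 lay 1.09-fold above Map1b.

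**Figure D1:**
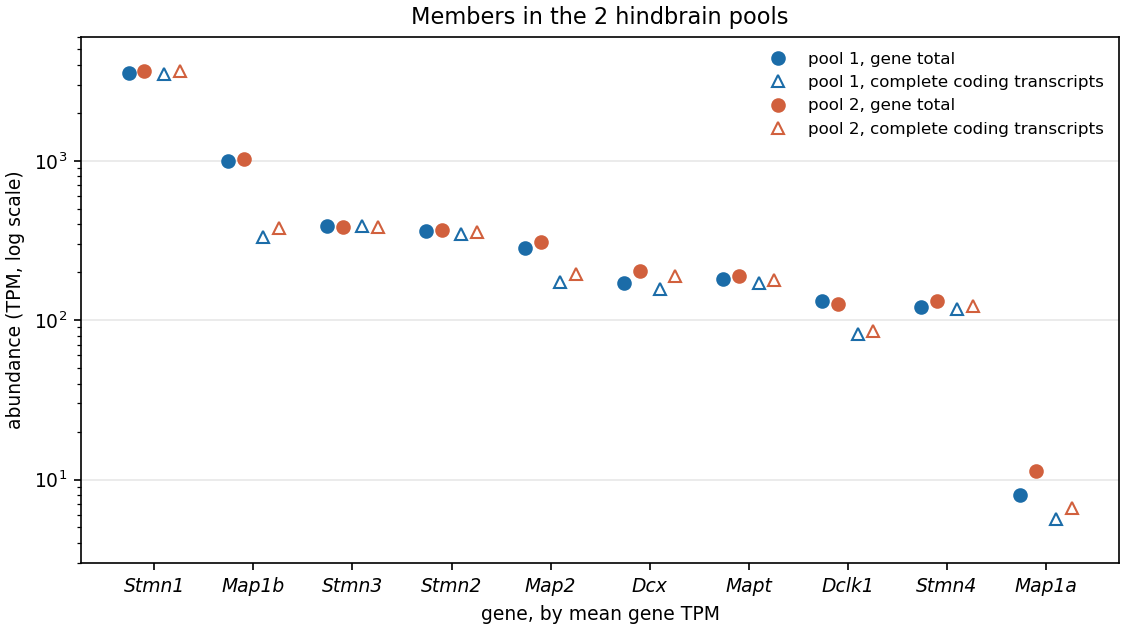
Gene-level abundance of the 10 members (y axis, TPM on a log scale) in pool 1 and pool 2, as gene totals (filled circles) and as complete coding transcripts alone (open triangles), the class defined in the next paragraph. Gene totals are highest for Stmn1 at 3549 and 3662 TPM, lowest for Map1a at 8.03 and 11.2 TPM, and between 121 and 1019 TPM for the other 8.

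A gene's TPM adds up all its annotated transcripts, including short fragments without a full coding sequence, and the members differed in how much these added. Transcripts were called complete coding when annotated as protein coding with neither end of the coding sequence cut, incomplete coding when an end was cut, and non-coding otherwise. Complete coding transcripts made up 33.6% of Map1b TPM in pool 1 and 37.0% in pool 2, the lowest share among the members. Their share was 61.7% and 67.5% for Dclk1, 61.6% and 63.1% for Map2 and 70.7% and 58.6% for Map1a. The other 6 members had 91.6% or more. Among 12270 expressed protein-coding genes with several transcripts the median was 82.9% in pool 1 and 83.4% in pool 2, and 15.3% lay under 50% in both pools, as Map1b did.

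For Map1b the complete transcript Map1b-201, of 11808 bases with 7392 coding bases, stood at 326 and 369 TPM. Map1b-202, of 1759 bases, stood at 307 and 301 TPM, Map1b-206, of 2150 bases, at 247 and 248 TPM, and Map1b-204, of 1364 bases, at 103 and 93.8 TPM. These last 3 are annotated as non-coding. Of their bases, 87.7% (Map1b-202), 92.0% (Map1b-206) and 23.2% (Map1b-204) lie within exons of Map1b-201, so reads there can be assigned to either. By estimated counts, which do not divide by length, complete coding transcripts held 77.0% and 79.4% of Map1b, 94.7% and 95.4% of Dclk1 and 86.7% and 86.8% of Map2. The short transcripts thus held a small part of the reads and a large part of the TPM.

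With complete coding transcripts alone, the order was Stmn1 (3580 ± 76.0 TPM, n = 2), Stmn3 (388 ± 3.88), Map1b (355 ± 30.5), Stmn2 (352 ± 6.31), Map2 (185 ± 15.4), Mapt (174 ± 5.73), Dcx (172 ± 22.9), Stmn4 (120 ± 4.12), Dclk1 (83.4 ± 2.49) and Map1a (6.13 ± 0.636). Map1b moved from 2nd to 3rd place and overlapped Stmn2, at 334 and 377 TPM against 347 and 356. Stmn4 lay above Dclk1 in both pools, at 117 and 123 TPM against 81.7 and 85.2. Map2 and Mapt, separated at the gene level, overlapped here, as did Mapt and Dcx.

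**Figure D2:**
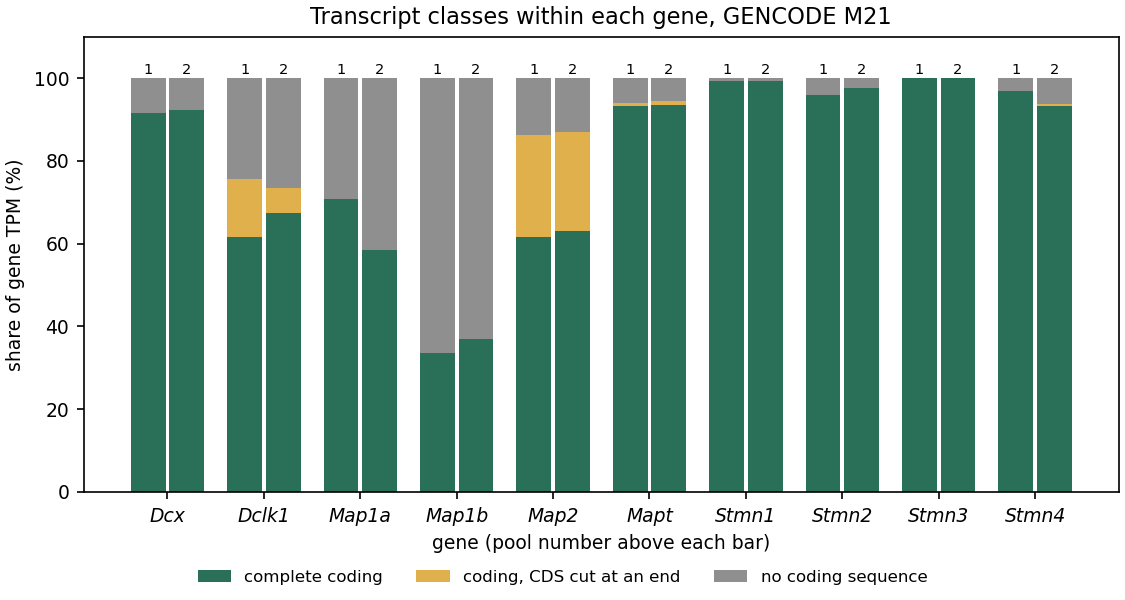
Share of each gene's TPM (y axis, percent) held by complete coding, incomplete coding (coding sequence cut at an end) and non-coding transcripts, with a bar for each pool. Map1b is the only member with most of its TPM outside complete coding transcripts, and Stmn1, Stmn2 and Stmn3 are nearly all complete coding.

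The older annotation, GENCODE M4, was deposited for the same reads and lists 1 Map1b transcript and 3 Dclk1 transcripts, against 6 and 15 in M21. Map1b stood at 440 and 483 TPM on M4, so its mean was 2.18-fold higher on M21, while its count changed only 1.01-fold. Dclk1 was 1.49-fold higher on M21, again with a count ratio of 1.01. The other 8 members stood at 0.950 to 0.966 of their M4 TPM, near the median of all genes (0.952). Map1b was the 1 member of 10 that differed by 1.5-fold or more, which 7.28% of 16062 genes did (5.17% with the higher value on M21). On M4 Stmn4 ranked above Dclk1.

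Of the 10 members, 3 had 1 isoform with 60% or more of their TPM in both pools, namely Stmn1-201 (98.3% and 97.9%), Stmn2-201 (95.8% and 97.5%) and Stmn3-201, its gene's only annotated transcript. Leaving out Stmn3, this was 2 of the 9 members with several transcripts, against 53.4% of 12965 expressed genes with several transcripts. The leading isoform was the same in both pools for all 9, against 89.9% of those genes. Stmn2 also has the longer Stmn2-202 of 3413 bases, which retains an intron and stood at 4.48 and 4.58 TPM.

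Map2 is known in a short form, MAP2C, that prevails in the embryo, and in a high-molecular-weight form with a long central exon. Transcripts with the short coding sequence of 1401 bases (Map2-201, Map2-205 and Map2-202) summed to 136 and 152 TPM, or 77.8% ± 0.622 of complete coding Map2. Map2-201 led, with 36.2% and 41.7% of all Map2 TPM. The long form Map2-204, with 5484 coding bases and a central exon of 3741 bases, stood at 33.6 and 38.3 TPM, or 19.3% and 19.6%. By these estimates the short form was the larger part in both pools. Map2-204 is annotated to end at 66439188 and Map2-201 at 66442581. The share of the long central exon therefore cannot be separated from that of the ends. The 93-base repeat exon shown above was included in 2.30% and 2.09% of complete coding Map2, through Map2-207 at 4.01 and 4.09 TPM. Map2-206, which also holds it, was assigned 0 counts in both, and 3 counts would correspond to 0.0308 and 0.0334 TPM. Map2-218, a fragment of 546 bases with a cut coding sequence, stood at 57.6 and 57.05 TPM.

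Tau also has alternative coding exons and alternative ends. Mapt-205, of 1527 bases and 1170 coding bases, stood at 92.6 and 99.6 TPM. Mapt-204, the longest transcript at 5253 bases with 1116 coding bases, stood at 57.05 and 56.6 TPM. By TPM Mapt-205 led with 50.8% and 52.3% of the gene, while by counts it held 28.5% and 30.1% against 63.5% and 61.8% for Mapt-204. Mapt-205 has a 54-base exon that Mapt-204 lacks, but they also end at different places, so the share of the exon itself cannot be separated from that of the ends. The pair of 87-base exons that encode the amino-terminal inserts of tau was included in 12.0% and 12.3% of complete coding Mapt, mostly through Mapt-201 at 16.7 and 18.2 TPM. By counts Mapt-201 held 4.56% and 4.87% of the gene. It ends short of Mapt-204, so this share also cannot be separated from that of the ends. Mapt-203, which holds the 759-base exon of the large tau known from peripheral neurons, stood at 3.69 and 3.76 TPM, or 2.17% and 2.11%. It too ends short of Mapt-204.

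**Figure D3:**
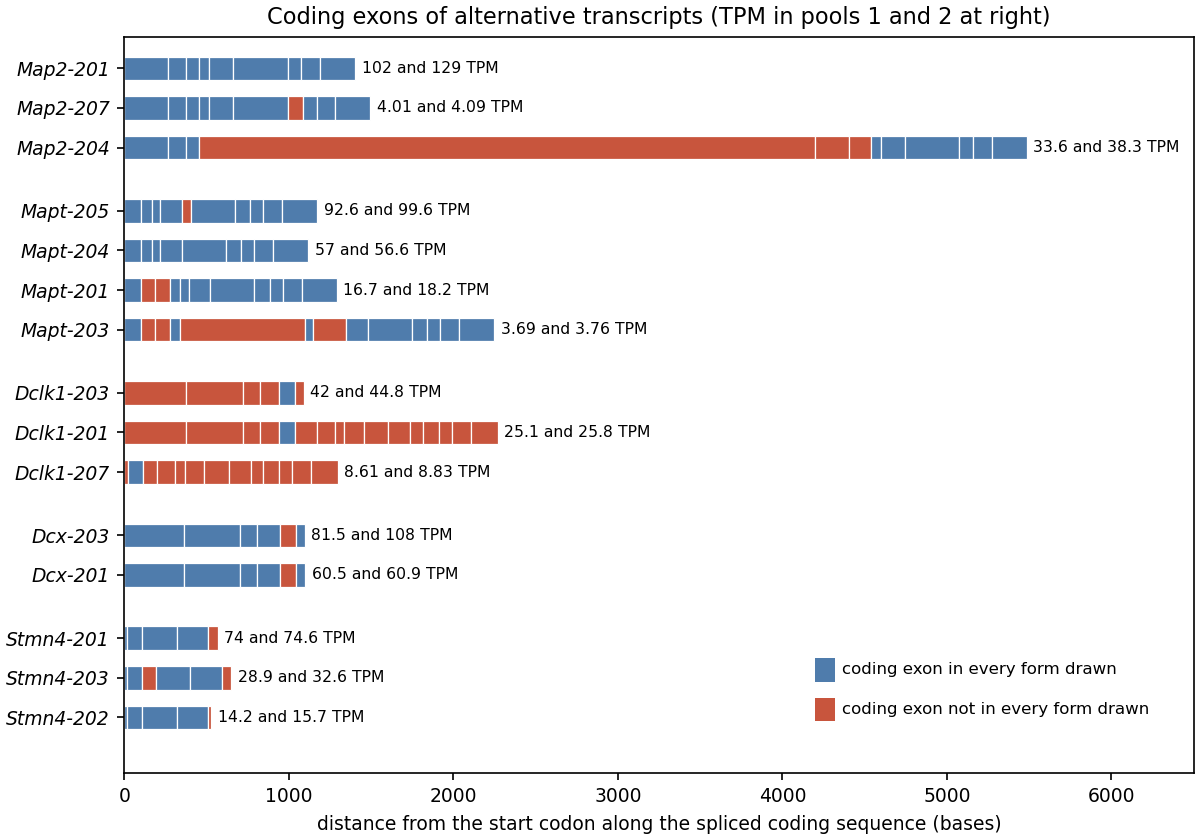
Coding exons of complete coding transcripts of Map2, Mapt, Dclk1, Dcx and Stmn4 drawn to scale along the coding sequence (x axis, bases from the start codon), with each transcript's TPM in both pools at the right. Blue exons are in every transcript drawn for the gene and red exons are not, among them the 3741-base exon of Map2-204 and the 81-base exon of Stmn4.

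Dclk1 has an upstream start, used by forms with doublecortin domains, and a downstream start, used mainly by forms that have the kinase without them (the exception, Dclk1-212 with 168 coding bases, stood at 0 and 0.07 TPM). Complete coding transcripts from the upstream start summed to 70.8 and 74.5 TPM (86.7% and 87.4%), and those from the downstream start to 10.9 and 10.7 TPM (13.3% and 12.6%). The upstream forms with 2217 and 2268 coding bases, which join both parts (Dclk1-204 and Dclk1-201), summed to 28.8 and 29.7 TPM. The upstream form Dclk1-203, with 1089 coding bases and no kinase part, stood at 42.0 and 44.8 TPM, or 51.4% and 52.5%. By TPM the form without the kinase was the largest single form in both pools. Complete coding forms with the kinase part together summed to 39.7 and 40.4 TPM. By counts Dclk1-203 held 45.5% and 47.1% of the gene. Dclk1-201 held 35.6% and 35.5% of counts, Dclk1-207 6.58% and 6.56% and Dclk1-204 5.27% and 5.43%. Dclk1-203 ends at 55471316 and Dclk1-201 at 55539064, so the share of the kinase part cannot be separated from that of the ends. Dclk1-204, the longest transcript at 7962 bases, stood at 3.66 and 3.90 TPM. Of transcripts without a complete coding sequence, Dclk1-206, of 775 bases, stood at 29.0 and 31.8 TPM. Dclk1-214, of 413 bases, stood at 18.6 and 7.59 TPM, and it is where the pools differed most among the Dclk1 transcripts above 10% of the gene.

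The 250 bases before the RefSeq start of each Dclk1 start region are shown because transcripts from these regions make the forms described above (RefSeq, GRCm38.p6, plus strand). The first is chr3:55242114-55242363 and the second chr3:55461478-55461727. They end just before the first bases of Dclk1-204 and Dclk1-212, which were low, and the more abundant forms start further downstream, at 55242526 (Dclk1-203 and Dclk1-201) and 55461899 (Dclk1-207). The windows are thus not directly in front of the starts of those forms.
Dclk1 upstream start: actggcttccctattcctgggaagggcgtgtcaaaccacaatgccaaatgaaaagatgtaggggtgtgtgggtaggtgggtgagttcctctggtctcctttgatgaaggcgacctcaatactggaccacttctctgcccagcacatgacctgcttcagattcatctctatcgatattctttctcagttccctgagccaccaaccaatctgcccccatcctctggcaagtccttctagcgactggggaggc
Dclk1 downstream start: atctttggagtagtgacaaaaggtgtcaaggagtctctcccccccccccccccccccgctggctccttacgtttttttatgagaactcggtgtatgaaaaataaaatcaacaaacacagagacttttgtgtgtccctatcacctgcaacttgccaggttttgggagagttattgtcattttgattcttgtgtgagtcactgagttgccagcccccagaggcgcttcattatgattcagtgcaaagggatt

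The upstream window had 52.4% G and C and the downstream window 46.8%, against a median of 52.4% over 32851 promoters. Neither holds CAGCTG or TATAAA on either strand, letters that 13.0% and 12.4% of the promoters of this length hold. These matches describe the windows and say nothing of any factor.

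The Dcx transcripts differ by a few coding bases at exon ends. The form with the 95-base exon, Dcx-203 of 4095 bases with Dcx-204, made up 60.6% and 65.4% of complete coding Dcx, and the form with the 98-base version, mainly Dcx-201 of 9074 bases, 39.4% and 34.6%. Dcx-203 stood at 81.5 TPM in pool 1 and 108 in pool 2, while Dcx-201 stood at 60.5 and 60.9. By these estimates the higher Dcx level of pool 2 lay mostly in Dcx-203. Dcx-204 (13.1 and 15.0 TPM) and Dcx-202 (1.03 and 4.26) were also higher in pool 2. All bases of Dcx-203 lie within exons of Dcx-201, so reads there can be assigned to either. Dcx-203 and Dcx-201 also differ in the length of the 3′ end, so the exon's share was not separated from it.

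In Stmn4 the 81-base exon shown above was included in 24.7% and 26.5% of complete coding transcripts, through Stmn4-203 at 28.9 and 32.6 TPM. Stmn4-201, with 567 coding bases and without the exon, led with 74.0 and 74.6 TPM. Stmn4-202, with 528 coding bases, stood at 14.2 and 15.7 TPM. Stmn4-204, the longest at 1361 bases, was assigned 0 counts in both pools, and 3 counts would correspond to 0.119 and 0.129 TPM. For Map1a, Map1a-202 stood at 3.54 and 5.16 TPM and the longer Map1a-201, of 11825 bases, at 2.14 and 1.42, with the non-coding Map1a-204 at 2.08 and 3.71. Within complete coding Map1a, Map1a-202 held 62.3% in pool 1 and 78.4% in pool 2, while its share of all Map1a TPM was 44.1% and 45.9%.

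Sequence identity between paralogs was measured over single coding exons. Of the exons of equal length, those of Map1a and Map1b were 51.8% to 78.4% identical, 3 of those of Map2 and Mapt 65.5% to 73.2%, and those of Dcx and Dclk1 68.4% (95 bases) and 70.4% (54 bases). Some members overlap other genes, and with the use of strand in counting not given in the sources used here, reads of such pairs cannot be told apart. Gm10558, antisense to Map2, stood at 18.5 and 16.9 TPM, and Ppip5k1, which overlaps the 3′ end of Map1a on the other strand, at 11.9 and 12.0 TPM.

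The pools were compared by the log2 ratio of pool 2 to pool 1 on TMM-scaled counts, without a test. None of the 10 members differed by 2-fold or more, which 1.00% of 14989 genes did (0.580% towards pool 2 and 0.420% towards pool 1), and none by 1.5-fold, which 3.43% did. The members with the largest ratios were Map1a (0.18), Dcx (0.17), Map2 (0.16) and Map1b (0.12). Stmn4 stood at 0.08, Stmn1 at 0.03, Dclk1 at 0.03, Stmn2 at 0.02, Mapt at 0.02 and Stmn3 at -0.03. In sign, 9 of 10 lay towards pool 2, against 50.6% of all genes. The median size of the ratio, whatever its sign, over all genes was 0.0981 and the 95th percentile 0.492. Scaled to the spike-ins, all 10 lay towards pool 1, with a median of -0.32 against -0.37 over all genes, so the sign depends on the scaling. On deposited TPM, Map1a stood at 0.48 and Dclk1 at -0.07.

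Cell type markers moved beside these ratios. Neuron markers summed to 2233 TPM in pool 1 and 2337 in pool 2, with a median log2 ratio of 0.11 and 7 of 9 towards pool 2. Progenitor markers summed to 2748 and 2521 TPM, with a median of -0.11 and 8 of 9 towards pool 1. Skeletal muscle markers differed most, at 27.7 and 138 TPM with a median of 2.28, and mesenchyme markers summed to 1170 and 1532 TPM (median 0.29, 5 of 5 towards pool 2). Hindbrain position genes summed to 244 and 335 TPM (median 0.40, 6 of 6 towards pool 2). Cranial ganglion markers summed to 164 and 181 TPM (median 0.29, 3 of 5 towards pool 2). Erythroid markers summed to 12667 and 9913 TPM (median -0.33, 4 of 5 towards pool 1). Oligodendrocyte lineage markers summed to 44.05 and 40.39 TPM (median -0.32, 3 of 5 towards pool 1). Forebrain position genes summed to 28.4 and 28.68 TPM. Only 3 of these 6 genes had enough counts for a ratio (median 0.08, 2 of 3 towards pool 2). Of these lists, all but the neuron, progenitor and forebrain markers had medians larger in size than the members' largest ratio of 0.18. Their part in the members' ratios was not tested.

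**Figure D4:**
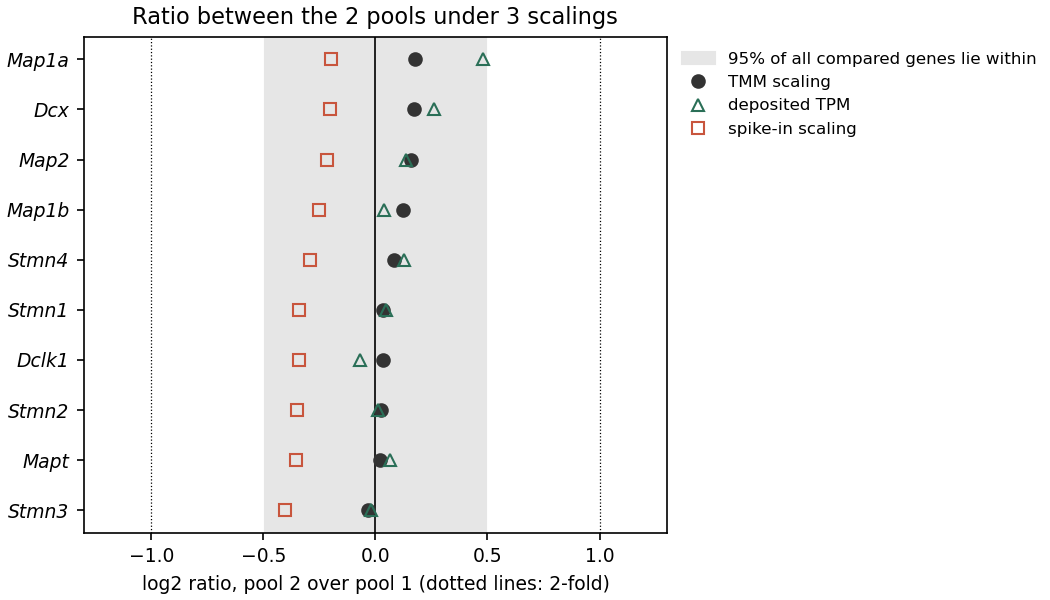
Log2 ratio of pool 2 to pool 1 (x axis) for each member with TMM scaling, spike-in scaling and deposited TPM. The grey band, to 0.492 on either side, holds 95% of all compared genes on TMM scaling. On TMM scaling the members span -0.03 to 0.18, and on spike-in scaling all lie below 0.

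Other genes that act on microtubules were taken from 7 lists. Among 13 other structural proteins, all reached 1 TPM in both pools, with a median of 16.8 TPM against 242 TPM over the members. Tppp3, which bundles microtubules, stood at 134 ± 13.5 TPM (n = 2), Map4, the widely expressed relative of Map2 and tau, at 116 ± 13.6 and Map7d1 at 113 ± 3.00. None of these reached the level of Dcx or Mapt, but each lay above Map1a (9.63 TPM). Tppp3, at 144 TPM in pool 1 and 125 in pool 2, overlapped Dclk1 (132 and 126) and Stmn4 (121 and 132). Of 7 other genes with doublecortin domains, 4 reached 1 TPM, with Dclk2 at 62.8 ± 6.96, Dcdc2a at 2.20 ± 0.799 and Dcdc2b at 2.12 ± 0.396. Rp1, a photoreceptor gene, stood at 0.505 and Dcdc2c at 0.0750. Dcx and Dclk1 were thus above the other 7 measured genes of their family.

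Genes of proteins that bind microtubule ends, plus or minus, reached 1 TPM in 14 of 14 cases, with a median of 61.4 TPM. Mapre1, which codes for EB1, stood at 307 ± 29.8 TPM, Mapre2 at 146 ± 16.2 and Clasp1 at 108 ± 4.54. Spindle proteins did so in 12 of 12 cases (median 36.8), led by Tacc3 (124 ± 0.820), Prc1 (87.8 ± 4.24) and Cep170 (85.0 ± 7.38). Severing and depolymerising genes did so in 8 of 9 cases (median 29.8), with the kinesin Kif2c at 43.2 ± 0.170, spastin (Spast) at 40.5 ± 0.191 and the katanin subunit Katna1 at 38.4 ± 2.04. Kif2b had no count. Among the regulators, all 11 tubulin-modifying enzymes passed (median 28.9), with the tubulin acetyltransferase Atat1 at 230 ± 3.39, Svbp at 149 ± 0.332 and Vash2 at 67.7 ± 6.96. All 15 kinases and phosphatase subunits that act on these proteins passed (median 48.1), with Ppp2r2a at 115 ± 0.856, the tau kinase Gsk3b at 109 ± 2.60 and Ppp2ca at 96.1 ± 1.41. Over all protein-coding genes, 61.8% reached 1 TPM in both pools. Of these list genes with 50 or more mean counts, none differed 2-fold between the pools, as none of the members did. Only 1.00% of 14989 genes did so.

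**Figure D5:**
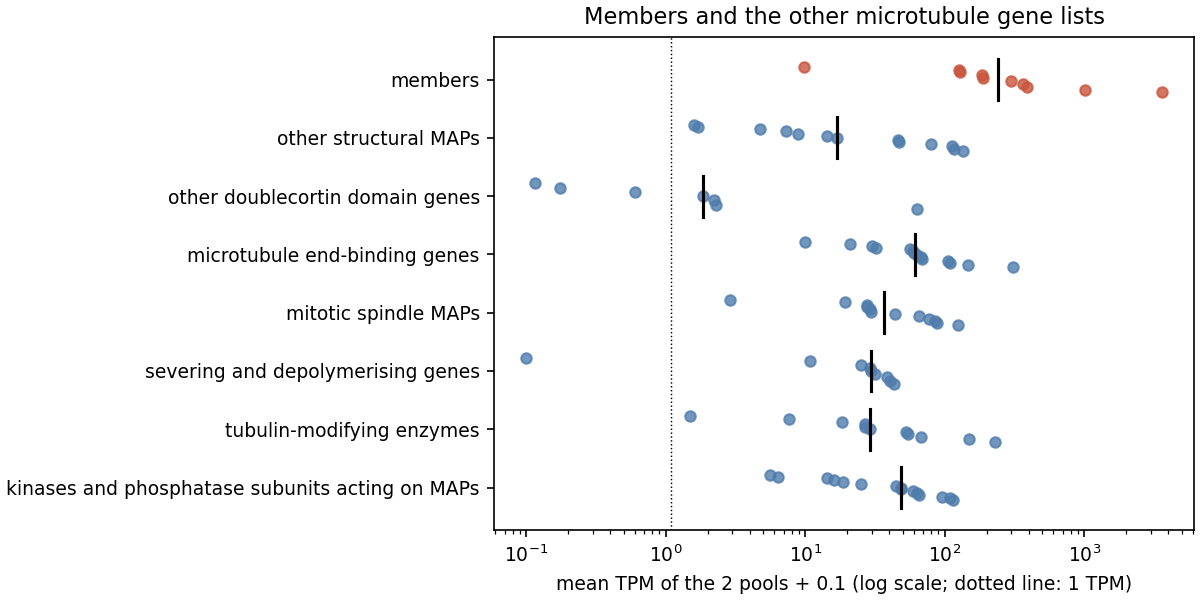
Mean TPM of both pools plus 0.1 (x axis, log scale), with 1 point per gene, in the members and in 7 other lists of microtubule genes, with the median of each list as a vertical bar. The members' median of 242 TPM lies above those of the 7 lists, which run from 1.75 to 61.4 TPM.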

How the data were processed

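PolyA-plus RNA of 2 hindbrain pools was measured. Per the labels, libraries were made from 10 ng of mirVana-extracted RNA with ERCC spike-ins, oligo-dT priming and Nextera tagmentation; amplification from low input can affect long transcripts. The quantifying program and its use of strand were not given in the sources used here. Read-me files deposited with the tables name mm10 with GENCODE M21 (used here) and M4 (an alternative). The deposited expected counts are estimated reads without depth scaling. The deposited TPM values are scaled to transcript length and to a fixed total that includes spike-ins and tRNA entries. The deposited FPKM values are per kilobase and library size, per the file headers. The deposited isoform percent is a transcript's part of its gene. Isoform shares were computed here from transcript TPM, and a share within complete coding transcripts divides by their sum.

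Levels are the mean and SD over the 2 pools. Expected counts were rounded for edgeR 4.0.16, and pool ratios used TMM scaling, a prior count of 0.5 and genes with 50 or more mean counts. Alternative scalings were spike-in totals, total counts and DESeq2 1.42.0. The ratio step was tested on simulated data. R 4.3.3, Python 3.11.15, pandas 2.3.3, numpy 2.4.6 and matplotlib 3.10.9 were used. A count of 0 allows up to 3 counts, and floors cover counting error only, since no molecular identifiers are named. For transcripts, the floors do not cover how reads were assigned between forms that share exons, so they do not bound the level.

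The members, lists and tests were chosen with earlier results of these data known. Named are all members, of each other list the 3 genes of highest mean TPM and up to 2 under 1 TPM in both pools, and of each member the transcripts at 10% or more in either pool and the longest; a few smaller transcripts were named after their values were seen. Exon and promoter windows came from the GENCODE M21 transcripts and RefSeq; the promoter table held 6 of 10 members. Alternatives were M4, other scalings, thresholds and folds, leaving out each pool, and complete coding transcripts alone, which was added after seeing the data. Some exon and gene results are not reported here.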

Additional observations from a re-analysis of the deposited data

How the results depend on the processing

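The count of all genes 2-fold apart between the pools was 150, and it became 250 with spike-in totals, 514 at a fold of 1.5 and 7234 without the low-count limit. The stathmin share of member TPM, 71.2%, became 79.0% on M4, 35.8% on expected counts and 82.0% on complete coding transcripts alone, which was chosen after seeing the data. Members with a leading isoform at 60% or more numbered 3, and 5 at 50% or more, with 3 to 4 when a pool was left out. Members 1.5-fold apart between annotations numbered 1 (Map1b), 2 at a fold of 1.2, 0 on expected counts and 1 to 2 when a pool was left out, where Dclk1 joined in pool 1 alone. Other doublecortin genes at 1 TPM numbered 4, and 1 at 5 TPM. Member TPM moved by more than the SD for 6 of 10 genes on M4. Pool ratios have no SD, so a move was a change beyond a 95% counting interval. By this rule all 10 ratios moved with spike-in totals, 5 on deposited TPM and none with DESeq2 or total-count scaling. The cause of these moves was not tested, except that the counts without length scaling weigh short transcripts less by construction. No paired analysis was possible because there is only 1 group, of 2 pools. The low counts of Map1a, with 1227 and 1288 reads, limit its isoform shares.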
